A study of Mus musculus with 2 samples.

Results

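The cytochrome P450 genes of families 1, 3 and 4 were examined in mouse liver with and without endotrophin (ETP). Members were all protein-coding genes whose symbol is Cyp followed by 1, 3 or 4, a subfamily letter and a number, and there were 32 of them among the 35275 genes measured. By subfamily, 2 belonged to Cyp1a, 1 to Cyp1b, 9 to Cyp3a, 8 to Cyp4a, 1 to Cyp4b, 9 to Cyp4f, 1 to Cyp4v and 1 to Cyp4x. S1a/ETP mice were Alb-Cre+/-, Rosa rtTA+/-, TRE-ETP+/- and S1a+/-, and S1a/Ctrl mice carried the same alleles except TRE-ETP. Both groups were male FVB littermates that received doxycycline (200 mg/kg of diet) for 10 months, and their labelled age was 12 months. Both carried the S1a transgene, a truncated and constantly active human SREBP-1a driven by the rat PEPCK promoter, which makes the liver fatty. In both, albumin-driven Cre opens the Rosa26 rtTA locus in hepatocytes, and in S1a/ETP mice doxycycline then turns on ETP, a peptide cleaved from the C-terminus of collagen VI alpha 3. Each group gave 1 library, made from the pooled RNA of 3 mice, which leaves no spread between mice to test against, and no p-value was computed.

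P450 enzymes are heme proteins of the endoplasmic reticulum that oxidise fat-soluble molecules with electrons from P450 oxidoreductase. Family 1 is known for aromatic hydrocarbons and amines and for induction through the aryl hydrocarbon receptor (AhR), and the Cyp3a genes for drugs, steroids and bile acids and for induction through the pregnane X receptor (PXR) and the constitutive androstane receptor (CAR). Family 4 enzymes hydroxylate the far end of fatty acids and of lipid mediators such as leukotrienes, and the Cyp4a genes are known targets of the fatty acid receptor PPAR alpha.

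The promoters of 4 members are shown first because these neighbouring genes of the same subfamily had ratios of opposite sign. Each is the 250 bases before the annotated start, 5′ to 3′ on the strand of the gene, from RefSeq on GRCm38.p6 (the assembly also called mm10). Capitals mark exact matches, on either strand, of GCGTG, the core bound by AhR with its partner Arnt, in the Cyp1a genes, and of AGGTCA, the half-site of many nuclear receptors, in the Cyp3a genes. The windows are chr9:57697363-57697612 (+) for Cyp1a1, chr9:57683656-57683905 (-) for Cyp1a2, chr5:145879855-145880104 (-) for Cyp3a11 and chr5:145805875-145806124 (-) for Cyp3a44.
Cyp1a1: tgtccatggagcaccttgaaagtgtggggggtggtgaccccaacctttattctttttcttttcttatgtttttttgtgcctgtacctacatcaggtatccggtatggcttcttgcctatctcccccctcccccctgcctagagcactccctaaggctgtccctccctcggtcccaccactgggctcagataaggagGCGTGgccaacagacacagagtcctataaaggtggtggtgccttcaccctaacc
Cyp1a2: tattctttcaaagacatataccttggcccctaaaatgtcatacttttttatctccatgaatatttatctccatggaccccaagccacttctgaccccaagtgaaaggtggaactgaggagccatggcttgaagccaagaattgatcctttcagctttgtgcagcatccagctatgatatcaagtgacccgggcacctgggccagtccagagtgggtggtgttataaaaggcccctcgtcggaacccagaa
Cyp3a11: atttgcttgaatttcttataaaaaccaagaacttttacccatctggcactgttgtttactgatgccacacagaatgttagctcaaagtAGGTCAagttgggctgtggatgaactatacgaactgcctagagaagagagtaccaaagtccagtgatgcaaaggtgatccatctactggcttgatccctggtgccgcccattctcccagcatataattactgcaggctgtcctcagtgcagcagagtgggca
Cyp3a44: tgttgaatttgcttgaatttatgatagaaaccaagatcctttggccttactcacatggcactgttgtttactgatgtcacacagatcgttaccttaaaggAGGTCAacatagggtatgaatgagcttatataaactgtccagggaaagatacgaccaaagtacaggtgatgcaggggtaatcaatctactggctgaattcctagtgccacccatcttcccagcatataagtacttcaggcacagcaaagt

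GCGTG began at position -54 of Cyp1a1, counted back from the start, and the Cyp1a2 window held none. It was present in 6 of the 25 members with a promoter entry (Cyp1a1, Cyp1b1, Cyp4f14, Cyp4f16, Cyp4f39 and Cyp4v3), and in 28.2% of the 32851 promoters of the same length. AGGTCA began at -162 in Cyp3a11 and at -150 in Cyp3a44, and these windows shared 72.1% of their aligned positions. The deposited coordinates start Cyp3a11 at 145879964 on the minus strand, inside its RefSeq window. The position of its match therefore depends on the annotation. The half-site was present in 6 of the 25 members, 5 of them Cyp3a genes (Cyp3a11, Cyp3a25, Cyp3a44, Cyp3a57 and Cyp3a59) and the other Cyp4a29, and in 14.0% of all promoters. Direct repeats of AGGTCA with any 1 base between the copies (DR1) or any 3 bases (DR3), which contain the half-site, were found in none of the 25. They were present in 0.0335% (DR1) and 0.00609% (DR3) of all promoters. The windows of Cyp3a25 and Cyp3a59 were 94.8% identical, and both held 2 half-sites, on opposite strands. A match is a description of the letters and not a binding site. Bases outside the promoter windows were not searched. A window without a match, as for GCGTG in Cyp1a2, therefore does not show that the gene lacks these letters elsewhere.

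Levels are in FPKM, fragments scaled to the length of the gene and to the depth of the library, as the authors deposited them. Undoing this scaling gave whole reads for 100% of the values (within 0.01 reads), and the depth was 14538808 reads in S1a/ETP and 19245078 in S1a/Ctrl. Ratios are log2 of S1a/ETP over S1a/Ctrl with 0.1 FPKM added to both, so they understate the change of genes near that level. The bracketed 95% interval comes from the reads by the exact binomial method of Clopper and Pearson and covers counting error only. In what follows, higher or lower is written of a gene whose interval lies wholly above or below 0. The libraries were liver by their markers, with Alb at 31035 FPKM in S1a/ETP and 31534 FPKM in S1a/Ctrl. Col6a3, whose end encodes ETP, was at 2.45 FPKM (360 reads) in S1a/ETP and 1.80 FPKM (351 reads) in S1a/Ctrl, 0.42 [0.21, 0.63], a value for the whole gene that does not separate the transgene. All 8 skeletal muscle markers had reads in S1a/Ctrl, 81.0 FPKM in sum, whereas 7 of the 8 were at 0 in S1a/ETP, 0.449 FPKM in sum, and the part of such tissue in the P450 levels was not tested. Pvalb of the muscle markers is among the reduced genes that the study printed, so its direction was known in advance. All 5 kidney markers were at 0 in both libraries.

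Of the 32 members, 24 had a mean of at least 0.1 FPKM, and 8 did not. All 32 together summed to 2415 FPKM in S1a/ETP and 3406 FPKM in S1a/Ctrl, or 0.542% and 0.765% of the reads, a log2 ratio of -0.50. Among the 24, 2 were at least 2-fold higher, against a background of 6.42% of the 16042 genes that passed the same filter, and 0 were at least 2-fold lower, against 6.25% (12.7% in either direction). Both genes past 2-fold, Cyp4f18 and Cyp1a1, were at low levels. Cyp4f18, at 0.0611 FPKM in S1a/Ctrl, passed the filter only through its level in S1a/ETP. The next outside were Cyp1a2 at -0.99, whose interval extends past 2-fold, and Cyp3a57 at 0.97.

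Smaller differences were seen in the abundant members. Of the 13 members that averaged 30 FPKM or more, 0 were 2-fold higher or lower, against 0.895% of all 1900 genes at that level that were higher and 1.47% lower (2.37% either way). Of these 13, 11 had an interval below 0 and 1 above it (Cyp4a10, with a lower limit of 0.03). Their median log2 ratio was -0.48. Over the 1900 genes, 42.1% had an interval below 0, 31.8% above, and the median was -0.03. The 11 members between 0.1 and 30 FPKM had a median of 0.10, with 4 intervals above 0 and 0 below. Over all genes that passed, the 1900 abundant ones included, 22.4% lay above 0, 17.5% below, and the median was 0.03. Shares for genes between 0.1 and 30 FPKM alone were not computed. In bulk RNA, fewer cells of a type and less RNA per cell cannot be told apart.

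**Figure D1:**
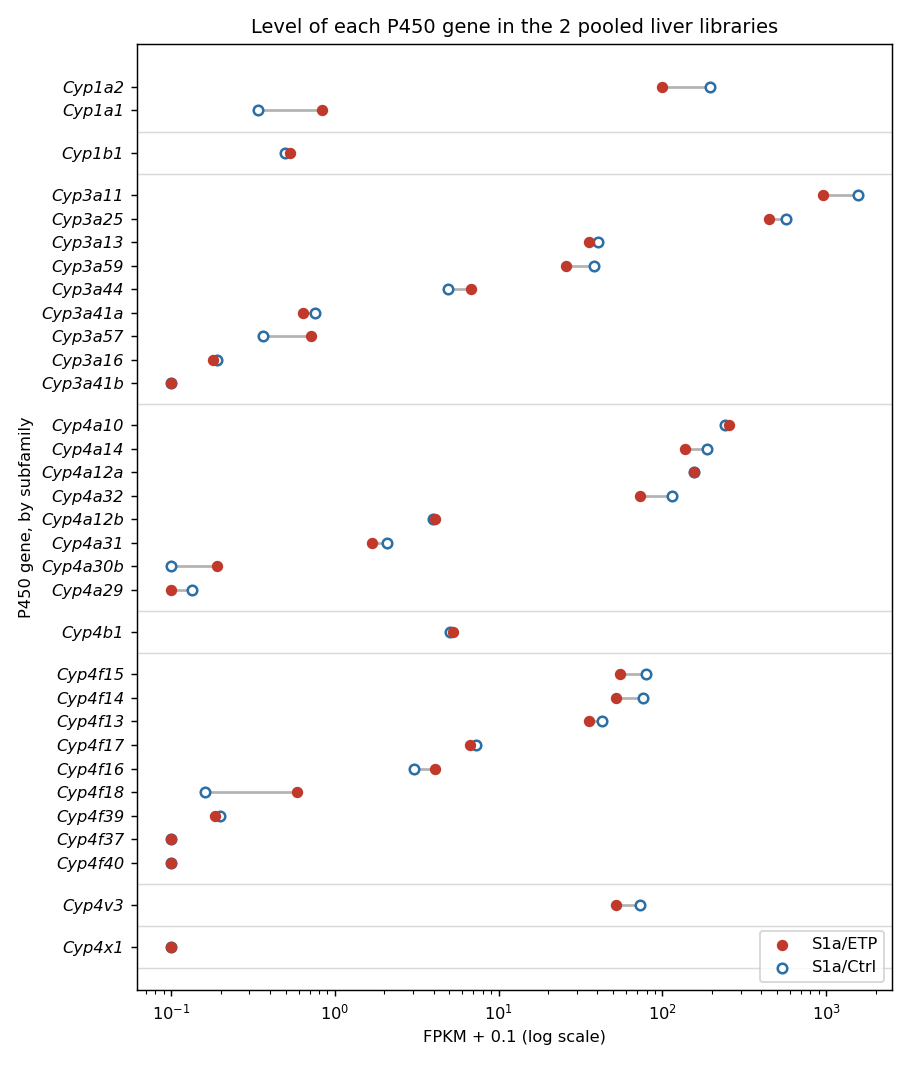
Level of each of the 32 P450 genes as FPKM + 0.1 on a log axis, with S1a/ETP as filled red points and S1a/Ctrl as open blue points, 1 pooled library each, joined by a line. Cyp3a11 is the most abundant, at 961 FPKM in S1a/ETP and 1565 FPKM in S1a/Ctrl, and the abundant genes Cyp4a10 and Cyp4a12a have nearly coinciding points.

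In family 1, Cyp1a2, the constitutive liver enzyme that oxidises caffeine and aromatic amines, was at 98.7 FPKM (2716 reads) in S1a/ETP and 196 FPKM (7128 reads) in S1a/Ctrl. Its log2 ratio was -0.99 [-1.05, -0.92], and 1.47% of the 1900 abundant genes had a lower one. Cyp1a1, its neighbour on chromosome 9 and the inducible oxidiser of polycyclic aromatic hydrocarbons, was at 0.735 FPKM (28 reads) in S1a/ETP and 0.238 FPKM (12 reads) in S1a/Ctrl, a ratio of 1.31 [0.50, 2.08]. The pair thus differed in direction, at levels far apart: Cyp1a1 was 0.739% of the Cyp1a sum in S1a/ETP and 0.121% in S1a/Ctrl. The wide interval of Cyp1a1 reflects its few reads, and with a pseudocount of 1 FPKM its ratio was 0.49. Cyp1b1, which oxidises estrogens and is mostly found outside the liver, was at 0.429 FPKM (32 reads) in S1a/ETP and 0.395 FPKM (39 reads) in S1a/Ctrl. Its ratio of 0.10 [-0.48, 0.67] was within counting error.

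In GRCm38 coordinates, as the table gives them, Cyp1a2 spans 57676937 to 57683655 on the minus strand and Cyp1a1 57697613 to 57703822 on the plus strand. Their transcripts had few stretches in common, 2.06% of the 100-base windows of the Cyp1a2 transcript being present in Cyp1a1. Ahr itself, the receptor of this family, was at 4.92 FPKM in S1a/ETP and 3.94 FPKM in S1a/Ctrl, 0.31 [0.12, 0.51], and Arnt at 10.0 FPKM and 9.46 FPKM, 0.08 [-0.07, 0.24]. Of 6 other AhR target genes 4 passed the filter, 1 higher and 2 lower. Tiparp, a feedback repressor of AhR, was higher (0.32), the glucuronosyltransferase genes Ugt1a6a (-0.84) and Ugt1a6b (-0.37) were lower, and the quinone reductase Nqo1 was at -0.03 [-0.27, 0.22]. Ugt1a6b, Ugt1a6a and Ugt1a1 belong to 1 locus with shared 3′ exons, so their reads are uncertain. The other pair, Ahrr and Aldh3a1, had at most 2 reads in either library.

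Cyp3a was the most abundant subfamily, with a sum of 1479 FPKM in S1a/ETP and 2221 FPKM in S1a/Ctrl. On reads per depth, 48299 in S1a/ETP and 96563 in S1a/Ctrl, the sum had a log2 ratio of -0.59 [-0.61, -0.58]. Cyp3a11, the main mouse hydroxylase of testosterone and of many drugs, carried most of it, at 961 FPKM (32750 reads) in S1a/ETP and 1565 FPKM (70604 reads) in S1a/Ctrl. The Cyp3a11 ratio was -0.70 [-0.72, -0.68], and its share of the subfamily sum was 65.0% in S1a/ETP and 70.5% in S1a/Ctrl. The next gene, Cyp3a25, was lower by less, at 449 FPKM (13059 reads) in S1a/ETP and 571 FPKM (21994 reads) in S1a/Ctrl, -0.35 [-0.38, -0.32]. The intervals of Cyp3a11 and Cyp3a25 do not overlap, so their ratios differ by more than counting error.

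Cyp3a59, whose promoter is close to that of Cyp3a25, was at 25.7 FPKM (748 reads) in S1a/ETP and 38.0 FPKM (1460 reads) in S1a/Ctrl, -0.56 [-0.69, -0.43]. Cyp3a13 lies apart from the other Cyp3a genes, at 137892932 to 137921619 of chromosome 5 where they lie between 145345279 and 146113285. It had the smallest difference of the 4 abundant genes, at 35.3 FPKM (1519 reads) in S1a/ETP and 40.2 FPKM (2287 reads) in S1a/Ctrl, -0.19 [-0.28, -0.09]. All 4 abundant Cyp3a genes were therefore lower, by unequal amounts.

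Of the 3 minor Cyp3a genes above the filter, 1 was higher and 0 were lower. Cyp3a44, a female-biased gene in mouse liver, was higher, at 6.70 FPKM (191 reads) in S1a/ETP and 4.79 FPKM (181 reads) in S1a/Ctrl, 0.47 [0.18, 0.77]. Cyp3a57 was at 0.613 FPKM (14 reads) in S1a/ETP and 0.264 FPKM (8 reads) in S1a/Ctrl, 0.97 [-0.11, 1.99], which is within counting error. Cyp3a41a, another female-biased gene, was at 0.537 FPKM (16 reads) in S1a/ETP and 0.659 FPKM (26 reads) in S1a/Ctrl, -0.25 [-1.08, 0.56]. Its copy Cyp3a41b had 0 reads in both, and since 88.4% of the 100-base windows of Cyp3a41a are also in Cyp3a41b, reads of the pair cannot be assigned with certainty. The fetal gene Cyp3a16 had 2 reads in S1a/ETP and 3 in S1a/Ctrl.

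**Figure D2:**
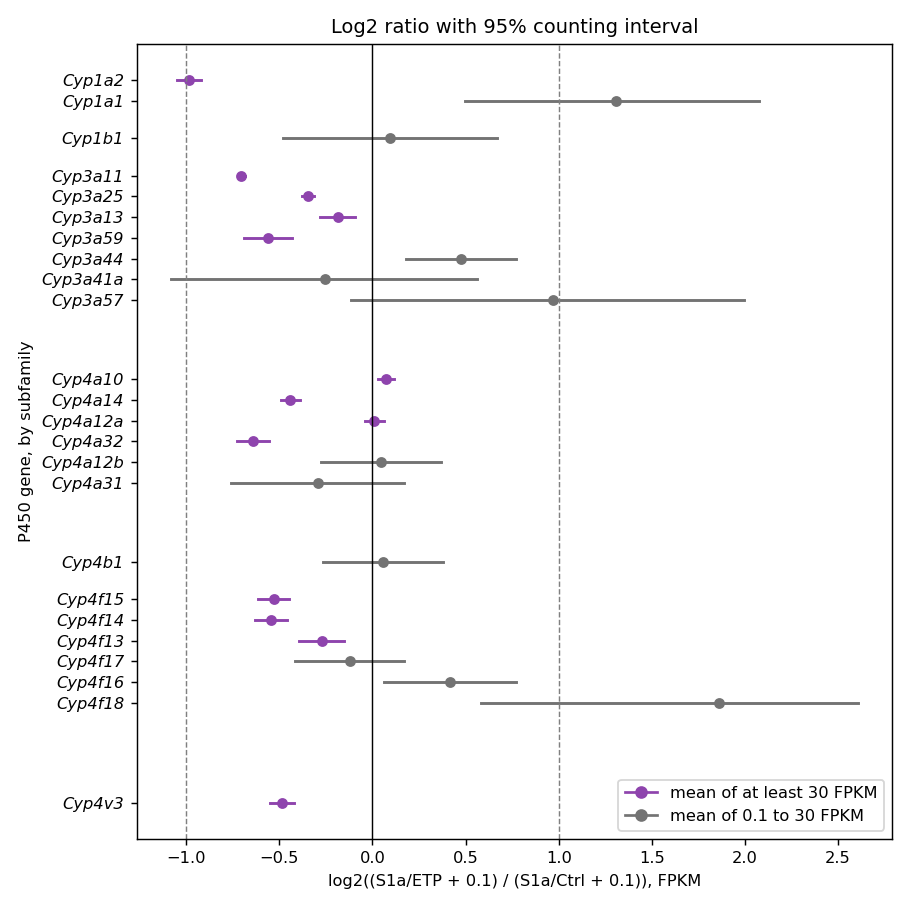
Log2 ratio, S1a/ETP over S1a/Ctrl with 0.1 FPKM added, of the 24 P450 genes that passed the filter, with the 95% counting interval as a bar, purple for genes averaging 30 FPKM or more and grey for lower ones. Dashed lines mark 2-fold. Of the 13 purple genes 11 lie left of 0, with Cyp1a2 farthest at -0.99, and the points past the right dashed line are Cyp1a1 at 1.31 and Cyp4f18 at 1.86.

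Receptors and other targets of the Cyp3a regulators were taken from lists of known members. Nr1i3, which encodes CAR, was at 19.99 FPKM (866 reads) in S1a/ETP and 43.4 FPKM (2488 reads) in S1a/Ctrl, -1.11 [-1.23, -1.002]. It was the only one of the 14 receptor and factor genes at least 2-fold lower, against 6.25% of all genes that passed. Nr1i2, which encodes PXR, was at 43.6 FPKM in S1a/ETP and 53.0 FPKM in S1a/Ctrl, -0.28 [-0.37, -0.19]. The glucocorticoid receptor Nr3c1 was also lower (-0.28), while the shared partner Rxra (0.02 [-0.03, 0.07]) and the hepatocyte factor Hnf4a (0.04 [-0.01, 0.08]) had intervals that held 0. So did Nr1h4 (-0.05), Cebpb (-0.05), Ppargc1a (-0.25) and Stat5b (0.03), with Cebpa at -0.06 [-0.11, -0.02] and Bcl6, a repressor, at 0.29 [0.01, 0.57]. The list's median was -0.03, and 0.04 after rescaling to TPM.

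Of 12 PXR and CAR targets outside Cyp3a, 7 were lower, 0 higher, and the median was -0.23. Over all genes that passed the filter, 17.5% were lower and 22.4% higher. Among genes averaging 30 FPKM or more, these shares were 42.1% and 31.8%. The same shares apply beside the counts of the other lists. Cyp2b10, the usual marker of CAR activity, was at 0.826 FPKM (23 reads) in S1a/ETP and 3.12 FPKM (115 reads) in S1a/Ctrl, -1.80 [-2.43, -1.20]. The carboxylesterase Ces2a was at 68.9 FPKM in S1a/ETP and 161 FPKM in S1a/Ctrl, -1.22 [-1.30, -1.15]. At the other end of the list were Gadd45b (0.35 [-0.17, 0.86]) and Gsta1 (0.18 [-0.06, 0.41]), both within counting error. Gstm1, its most abundant gene, was at 1676 FPKM in S1a/ETP and 1953 FPKM in S1a/Ctrl, -0.22.

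The Cyp4a subfamily differed least among the abundant subfamilies, with sums of 626 FPKM in S1a/ETP and 703 FPKM in S1a/Ctrl, a log2 ratio of -0.17. Its genes did not move together. Cyp4a10, a fatty acid omega-hydroxylase and PPAR alpha target, was at 253 FPKM (7763 reads) in S1a/ETP and 241 FPKM (9779 reads) in S1a/Ctrl, 0.07 [0.03, 0.11]. Cyp4a14, induced by the same receptor, was at 138 FPKM (5009 reads) in S1a/ETP and 187 FPKM (9005 reads) in S1a/Ctrl, -0.44 [-0.49, -0.39]. The 2 intervals lie on opposite sides of 0 with the settings used. Cyp4a10 was at 0.04 with the median ratio set to 0, a shift about as large as its lower limit, and at 0.14 with TPM. Cyp4a10 made up 40.5% of the Cyp4a sum in S1a/ETP and 34.3% in S1a/Ctrl, and Cyp4a14 22.1% and 26.7%.

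Cyp4a32 was lower too, at 73.0 FPKM (1624 reads) in S1a/ETP and 114 FPKM (3355 reads) in S1a/Ctrl, -0.64 [-0.73, -0.56]. Its transcript shares 13.8% of its 100-base windows with Cyp4a10, so some reads of these neighbours may be exchanged. Cyp4a12a, the male-specific arachidonic acid omega-hydroxylase, was at 156 FPKM (5484 reads) in S1a/ETP and 155 FPKM (7213 reads) in S1a/Ctrl, 0.01 [-0.04, 0.06], and the sign of this ratio turned when the median ratio of all genes was set to 0. Its near copy Cyp4a12b, with 36.2% of windows shared, was at 3.99 FPKM (139 reads) in S1a/ETP and 3.86 FPKM (178 reads) in S1a/Ctrl, 0.05 [-0.28, 0.37]. Cyp4a31 was at 1.59 FPKM (58 reads) in S1a/ETP and 1.97 FPKM (95 reads) in S1a/Ctrl, -0.29 [-0.76, 0.17]. The remaining Cyp4a genes had at most 2 reads, Cyp4a30b 2 in S1a/ETP and 0 in S1a/Ctrl, and Cyp4a29 0 in S1a/ETP and 1 in S1a/Ctrl.

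**Figure D3:**
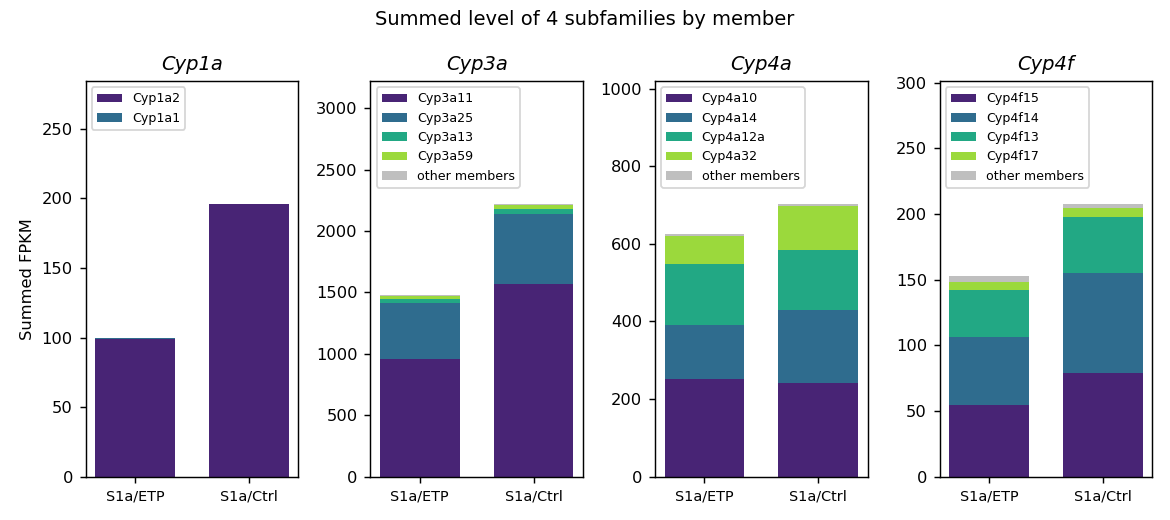
Summed FPKM of 4 subfamilies, S1a/ETP left and S1a/Ctrl right in each panel, 1 pooled library each, stacked by gene, each panel with its own axis from 0. The Cyp3a bars reach 1479 FPKM in S1a/ETP and 2221 FPKM in S1a/Ctrl and are mostly Cyp3a11, whereas the Cyp4a bars, at 626 FPKM and 703 FPKM, differ mainly in Cyp4a14 and Cyp4a32.

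Ppara itself was at 34.7 FPKM in S1a/ETP and 34.9 FPKM in S1a/Ctrl, -0.01 [-0.10, 0.08]. Of its 21 other targets, 6 were higher and 14 lower, 0 of them past 2-fold, and the median was -0.15. Fgf21, the fasting hormone, was highest, at 30.8 FPKM in S1a/ETP and 16.2 FPKM in S1a/Ctrl, 0.92 [0.70, 1.14], followed by the pyruvate dehydrogenase kinase Pdk4 (0.47). The acyl-CoA thioesterase Acot3 (-0.61) and the enoyl-CoA isomerase Eci2 (-0.60) were lowest, and Fabp1, the fatty acid carrier and most abundant of the list, was at -0.20. Both directions thus occurred among these targets, as in Cyp4a10 and Cyp4a14 with the settings used. Of 7 genes that act on the products of omega hydroxylation, 6 were lower and 0 higher, with a median of -0.23. Among them were the acyl-CoA synthetase Acsl1 (-0.35), the alcohol dehydrogenases Adh4 (-0.31) and Adh1 (-0.13) and the aldehyde dehydrogenase Aldh3a2 (-0.15), while the peroxisomal transporter Abcd3 was at 0.01 [-0.02, 0.04].

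Cyp4a12a stood beside a list of 10 other male-biased liver genes, of which 9 were lower and 1 higher, 5 of them at least 2-fold lower, with a median of -1.09. Hsd3b5, Mup7 and Susd4 of this list are in the study's own printed list of most reduced genes, so their direction was known in advance. Over all genes that passed, 6.25% were at least 2-fold lower. Hsd3b5, a steroid reductase of male liver, was at 0.386 FPKM (9 reads) in S1a/ETP and 14.4 FPKM (446 reads) in S1a/Ctrl, -4.90 [-5.73, -4.11]. The pheromone carrier Mup7, a member of a family of near-identical copies, was at 3.33 FPKM in S1a/ETP and 52.6 FPKM in S1a/Ctrl, -3.94. The fatty acid elongase Elovl3 (0.42) and Cyp2d9 (-0.15), the most abundant of the list, had its highest ratios. Of 10 female-biased genes, the group to which Cyp3a44 and Cyp3a41a belong, 2 were higher and 5 lower, with a median of -0.49. Cyp17a1 (0.54) and A1bg (0.71) were higher, Cyp2b13 (-2.14) and Hao2 (-2.32) lowest, and Cyp2a4, the most abundant, was at -0.36. Cyp2b13 is also among the reduced genes that the study printed.

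**Figure D4:**
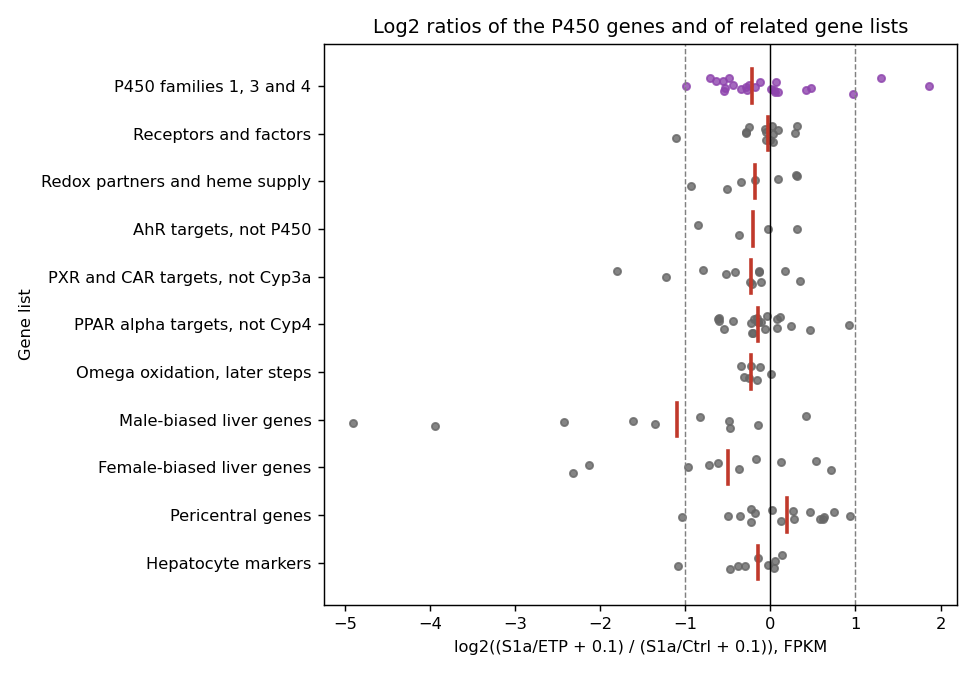
Log2 ratio, S1a/ETP over S1a/Ctrl with 0.1 FPKM added, of each gene above the filter in the P450 families and in 10 lists of related genes, 1 point a gene, with the median of each list as a red bar and 2-fold as dashed lines. The P450 families have a median of -0.22, receptors and factors -0.03, and male-biased genes -1.09.

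In Cyp4f, the sum was 153 FPKM in S1a/ETP and 208 FPKM in S1a/Ctrl, a log2 ratio of -0.44, and the 3 abundant genes were all lower. Cyp4f14, which hydroxylates leukotriene B4, was at 52.0 FPKM (1670 reads) in S1a/ETP and 76.0 FPKM (3227 reads) in S1a/Ctrl, -0.54 [-0.63, -0.46]. Cyp4f15 was at 54.7 FPKM (1724 reads) in S1a/ETP and 79.0 FPKM (3296 reads) in S1a/Ctrl, -0.53 [-0.61, -0.45]. Cyp4f13 was lower by less, at 35.3 FPKM (900 reads) in S1a/ETP and 42.6 FPKM (1438 reads) in S1a/Ctrl, -0.27 [-0.39, -0.15]. Cyp4f16 was higher, at 3.96 FPKM (129 reads) in S1a/ETP and 2.94 FPKM (127 reads) in S1a/Ctrl, 0.41 [0.06, 0.77], and shares 9.71% of its windows with Cyp4f37, which had 0 reads in both. Cyp4f17 was at 6.54 FPKM (161 reads) in S1a/ETP and 7.12 FPKM (232 reads) in S1a/Ctrl, -0.12 [-0.42, 0.17].

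Cyp4f18, the leukotriene B4 hydroxylase of mouse neutrophils and other myeloid cells, had the highest ratio of all members. It passed the filter only through S1a/ETP. It had 12 reads (0.485 FPKM) in S1a/ETP and 2 reads (0.0611 FPKM) in S1a/Ctrl, 1.86 [0.58, 2.61], and with a pseudocount of 1 FPKM the ratio was 0.48. It lies on chromosome 8, apart from the other Cyp4f genes, which are on chromosome 17. Neutrophil markers were higher as well: of 11 listed, 10 passed the filter, and all 10 were at least 2-fold higher. Over all genes that passed, 6.42% were. Many of the 11, among them Elane, Mpo, Ngp, S100a8 and S100a9, were named by the study from its own RNA-seq. Their direction here was therefore known in advance. All 11 summed to 370 FPKM in S1a/ETP and 6.18 FPKM in S1a/Ctrl. Elane, Mpo, Ngp and Camp, and Cxcr2, which did not pass the filter, were at 0 in S1a/Ctrl. Elane, Mpo, Ngp and Camp therefore passed the filter only through S1a/ETP. So did Ltf, at 8.96 FPKM in S1a/ETP and 0.019 FPKM (1 read) in S1a/Ctrl. For these genes the 2-fold call followed from the filter. Macrophage markers summed to 205 FPKM in S1a/ETP and 156 FPKM in S1a/Ctrl, with 9 of 10 higher. The part of these cells in the Cyp4f18 reads was not tested.

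Outside Cyp4a and Cyp4f, Cyp4v3, the mouse counterpart of the human corneoretinal dystrophy gene CYP4V2, was at 52.2 FPKM (2890 reads) in S1a/ETP and 73.1 FPKM (5354 reads) in S1a/Ctrl, -0.48 [-0.55, -0.42]. Cyp4b1, which is best known from lung, was at 5.16 FPKM (141 reads) in S1a/ETP and 4.95 FPKM (179 reads) in S1a/Ctrl, 0.06 [-0.26, 0.38]. Lung markers were present in both libraries, 6.79 FPKM in sum in S1a/ETP and 17.2 FPKM in S1a/Ctrl over 6 genes, with Scgb1a1 at 0 in S1a/ETP and Scgb3a2 at 0 in S1a/Ctrl, and their part in the Cyp4b1 reads was not tested. Sftpc of the lung markers was at 1.71 FPKM in S1a/ETP and 8.98 FPKM in S1a/Ctrl. The study printed it among its reduced genes, so its direction was known in advance. Cyp4f39, an omega-hydroxylase of skin lipids, had 2 reads in S1a/ETP and 3 in S1a/Ctrl. Cyp4f37, Cyp4f40 and the brain-expressed Cyp4x1 had 0 reads in both libraries, as had Cyp3a41b. For these 4 a count of 0 allows up to 3 reads, which is 0.0493 to 0.111 FPKM in S1a/ETP and 0.0372 to 0.0839 FPKM in S1a/Ctrl, depending on gene length.

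The proteins that supply electrons and heme to these enzymes were measured in the same libraries. Por, the P450 oxidoreductase, was at 144 FPKM in S1a/ETP and 182 FPKM in S1a/Ctrl, -0.34 [-0.39, -0.29]. The second electron donor Cyb5a was at 467 FPKM in S1a/ETP and 663 FPKM in S1a/Ctrl, -0.50 [-0.54, -0.47]. Alas1, the rate-limiting enzyme of heme synthesis, was at 124 FPKM in S1a/ETP and 237 FPKM in S1a/Ctrl, -0.94 [-0.98, -0.89], close to the ratio of Cyp1a2. Pgrmc1, a heme-binding partner of P450 enzymes, was lower by less (-0.18). The cytochrome b5 reductase Cyb5r3 (0.30), the mitochondrial cytochrome Cyb5b (0.09) and the heme-degrading Hmox1 (0.31 [0.09, 0.53]) were higher, so the list of 7 had both directions and a median of -0.18.

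Many P450 enzymes, Cyp1a2 among them, sit in hepatocytes around the central vein, and markers of these cells were set beside them. Of 16 pericentral genes, 7 were higher and 6 lower, with a median of 0.20. Their sum went the other way, 3936 FPKM in S1a/ETP and 5691 FPKM in S1a/Ctrl, with Cyp2e1 its largest part. Sp5 (0.93) and Slc13a3 (0.75) were highest and Rgn (-0.50) and Cyp2e1 lowest, the last being the most abundant of the list, at 1488 FPKM in S1a/ETP and 3050.0 FPKM in S1a/Ctrl, -1.04. Of 11 periportal genes, 4 were higher and 6 lower, with a median of -0.07, from Cyp2f2 (-0.63) and Hal (-0.62) to G6pc (0.44) and Cdh1 (0.51), and with Ass1 (0.07) most abundant. Of 9 general hepatocyte markers, 3 were higher and 6 lower, with a median of -0.15. Of 14 acute-phase genes, 12 were higher, with a median of 0.54, Lcn2 (2.96) and Orm2 (2.21) highest and Fgb (0.14) and Orm3 (-0.16 [-0.44, 0.12]) lowest. Their most abundant gene, the heme-binding Hpx, was at 0.40. Saa1, Saa2, Lcn2 and Orm2 of this list were named by the study from its own RNA-seq. Lcn2 is also a neutrophil gene, and the neutrophil markers were higher in the same library (370 FPKM in S1a/ETP and 6.18 FPKM in S1a/Ctrl in sum). The part of the acute-phase response in the P450 levels was not tested.

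For scale, of the 49 Cyp2 genes 40 passed the filter, 1 was past 2-fold on the higher side and 10 on the lower side, with a median of -0.33. The members had 2 and 0 such genes of 24 and a median of -0.22. Among genes averaging 30 FPKM or more, 19 of 22 Cyp2 genes had an interval below 0 and 2 above. Of the 13 members at that level, 11 lay below 0 and 1 above. Over all 1900 genes at that level, these shares were 42.1% and 31.8%. The remaining 20 P450 genes of other families had 13 above the filter, 1 at least 2-fold higher and 2 lower, with a median of -0.14. Among all genes that passed, 6.42% were at least 2-fold higher and 6.25% lower. The differences between P450 families were not tested.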

How the data were processed

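Liver RNA of S1a/ETP and S1a/Ctrl mice was sequenced by Novogene, as 1 pooled library of 3 mice per group. The authors deposited 1 table of FPKM values with gene IDs, symbols, coordinates and lengths. Tools named in the submitters' processing notes, without their roles, include edgeR 3.16.5, GATK 4.1, HTSeq 0.6.1, STAR, STAR-Fusion 1.5.0 and StringTie 1.3.3b, with mm10 as the genome build. Which annotation release and strand setting were used is not given in the sources used here, and near-identical copies and overlapping genes are uncertain. The 2 libraries were matched to groups by their labels.

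Reads were recovered from FPKM and gene length (100% of values whole within 0.01 reads, depths of 14538808 in S1a/ETP and 19245078 in S1a/Ctrl). A count model was not run, since 1 library per group leaves no residual spread. Log2 ratios used a pseudocount of 0.1 FPKM, a minimum mean of 0.1 FPKM and the 2-fold size of the study's methods. Only counting error is covered by their 95% exact binomial intervals and by the floor of 3 reads set for genes at 0. Members and the 21 lists of 202 genes (2 found by ID under an older symbol) were chosen with earlier results of these data known. All members are accounted for. Named from the lists are all receptors and redox partners above the filter. From each other pathway list, the 2 highest and 2 lowest ratios and the most abundant gene are named. Further genes were chosen after their values were seen (Nqo1, Ugt1a6a and Ugt1a6b, Aldh3a2, Alb, Ltf, Sftpc and the cell type markers at 0). Lists of stellate cells (5 of 10 genes higher and 1 lower, median 0.37), endothelial cells (0.05), cholangiocytes (-0.19) and B or plasma cells (2 of 5 genes with an interval above 0 and 0 below, median 0.86) were also measured. Windows of 100 bases were taken from the longest coding GENCODE vM21 transcript. Promoters came from RefSeq (GRCm38.p6), which had an entry for 25 of 32 members. The recovery of reads and depth, the coverage of the intervals and the 2-fold calls were tested on simulated data. The sums, lists, shared windows, promoter searches and alternatives were not. Alternatives were pseudocounts of 1 and 0.01 FPKM, no filter or 1 FPKM, TPM, a median ratio of 0, the total without the 100 most abundant genes, thresholds of 1.5-fold and 4-fold and, for subfamilies, summed reads. A minimum of 20 reads, calls by the counting interval and the half-site search were added after seeing the data. Python 3.11.15, numpy 2.4.6, pandas 2.3.3, scipy 1.17.1, biopython 1.88 and matplotlib 3.10.9 were used.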

Additional observations from a re-analysis of the deposited data

How the results depend on the processing

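The count of members at least 2-fold higher, 2 with the settings used, was 0 with a pseudocount of 1 FPKM, 0 with a minimum mean of 1 FPKM, 0 at 4-fold, 1 with at least 20 reads (added after seeing the data) and 5 when called by the counting interval (also added). It was 3 with a pseudocount of 0.01 FPKM, with TPM and at 1.5-fold. The count at least 2-fold lower, 0 as used, was 1 (Cyp1a2) with the median ratio set to 0, 3 at 1.5-fold and 11 by the interval. The library factors of the scalings are 0.07 (TPM), -0.03 (median) and 0.03 (without the 100 most abundant genes) on the log2 scale, which exceeds the counting interval of some sums. With TPM, the Cyp1a sum was at -0.91, Cyp3a -0.51, Cyp4a -0.10, Cyp4f -0.37 and Cyp4v -0.41. With the median set to 0, Cyp3a was at -0.61 and Cyp4a at -0.20, and without the 100 most abundant genes at -0.56 and -0.14. No subfamily sum turned its sign under these alternatives. Among the 24 single genes, 1 sign turned (Cyp4a12a, with the median set to 0), and 7 moved by more than their counting interval with TPM. With the pseudocount of 0.1 added after rescaling, TPM moved low genes by more than its factor, to 2.29 for Cyp4f18, 1.50025 for Cyp1a1 and 1.13 for Cyp3a57. Cyp4f18 was at 0.48 and 2.80 with pseudocounts of 1 and 0.01 FPKM. Of 20 list medians, 1 turned its sign with TPM (receptors, 0.04), and others came closer to 0 (PPAR alpha targets -0.08, periportal -0.0021, hepatocyte -0.08, redox partners -0.11, later steps of omega oxidation -0.16).

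Leaving out a replicate was not possible with 1 library per group. No paired analysis was possible because each group has 1 pooled library and no p-value was computed. Variation among mice and among library preparations cannot be seen in these data. The shallower S1a/ETP library detects low genes less readily, and members with few reads, such as Cyp4f18 with 14 and Cyp3a57 with 22 in both libraries together, have wide intervals.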

Other observations

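Pseudogenes of the same families were outside the comparison, which took protein-coding genes. Cyp4a30-ps, on chromosome 4, was at 1.89 FPKM (28 reads) in S1a/ETP and 1.17 FPKM (23 reads) in S1a/Ctrl, a log2 ratio of 0.64 [-0.15, 1.44], which is within counting error. Its level was above that of the protein-coding gene Cyp4a30b, which had 2 reads in S1a/ETP and 0 in S1a/Ctrl and shares 6.23% of its 100-base windows with it. Cyp4b1-ps2 had 0 reads in S1a/ETP and 3 in S1a/Ctrl, and Cyp4f41-ps 0 in S1a/ETP and 2 in S1a/Ctrl. Cyp4a28-ps, Cyp4a29-ps1, Cyp4b1-ps1 and the antisense gene Cyp4x1os were at 0 in both libraries.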
